A study of Prunus avium with 21 samples.

Results

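Flower buds of sweet cherry (*Prunus avium*, cultivar ‘Burlat’) were compared at 6 days after treatment (dat) between branches sprayed with hydrogen cyanamide and control branches sprayed with water. The comparison rests on 6 of the 21 libraries of the study, 3 hydrogen cyanamide-treated and 3 control, and each group has 1 library from each of the neighbouring trees 4, 5 and 6, grafted on SL 64 rootstock. Treated branches received 2% Dormex, the commercial form of hydrogen cyanamide, and control branches deionized water. All branches had been cut in January, before the chilling requirement was met, and stood in a growth chamber under constant light, so that both groups share the cutting, the warmth and the light. The other 15 libraries, untreated buds of the same trees at day 0, taken at another time of day, and both groups at 1 and 3 dat, are used only to place the values of day 6. All buds of a branch were pooled, so 1 library holds buds of mixed stages.

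Dormant buds of fruit trees resume growth only after enough chilling, and hydrogen cyanamide is sprayed to bring bud break forward. The compound inhibits catalase. Plants bind cyanide to cysteine through β-cyanoalanine synthase, and *Prunus* species also store cyanide in cyanogenic glucosides such as prunasin and amygdalin. Dehydrins and MADS-box repressors of the dormancy-associated type are high in resting buds and low in growing ones. Chitinases and glucanases, known as defence proteins, also act on cell walls and callose.

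Levels are given in FPKM, the fragments of a transcript scaled to its length and to all mapped fragments, as the authors deposited them. The values came without counts, so the depth behind them is unknown. FPKM summed to between 711486 and 760090 per library. Transcripts listed at 0 made up 11.0% to 12.8% of the treated and 8.50% to 9.06% of the control libraries. Each library correlated more closely with the libraries of its own group (Pearson's r across transcripts of 0.872 to 0.895) than with the other group (0.843 to 0.872). In buds, fewer cells of a type and less RNA per cell cannot be told apart. Green tissue markers were near the floor in both groups, with 2 measured transcripts that summed to 8.33 to 15.0 FPKM in treated and 7.14 to 9.90 in control buds. Of 7 anther and pollen transcripts, which summed to 10.8 to 19.2 FPKM in treated and 12.1 to 13.4 in control buds, 1 was called, higher. That call ran against the median log2 FC of the list, -0.73, and 3 of the 7 had a log2 FC above 0. It was lost with the tree as a block, without the filter on low values and in at least 1 fit with a library left out.

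Of 61781 transcripts tested, 870 were called at 6 dat (1.41%). A call needed an adjusted p no higher than 0.05 together with a log2 FC of 1 or more in either direction, on the log2(FPKM + 0.5) scale, which understates changes of low transcripts. Hydrogen cyanamide-treated buds were higher in 564 of them (0.913%) and lower in 306 (0.495%). The called transcripts belonged to 743 assembled genes. Their median log2 FC was 1.98 for those higher and -1.96 for those lower, against -0.07 over all transcripts tested, and 88 rose by a log2 FC of at least 3 while 26 fell as far. In all 870 the treated and the control libraries did not overlap, as was so for 23.3% of all transcripts tested, 10.9% with treated above and 12.4% below control. Fitting the tree as a block left 405 calls, and leaving out 1 library left between 167 and 696. Fitting all 21 libraries together gave 2555 calls, and some transcripts and lists without a call in the 6 libraries gained one there. Here and later, control tree 4 stands for the control library of that tree at 6 dat, and likewise for the others: calls were 167 without control tree 4 and 696 without treated tree 6. They were 392 without treated tree 4, 295 without treated tree 5, and 213 and 433 without control trees 5 and 6. After rescaling of FPKM by median ratios, which moved the median log2 FC by 0.105, 75.7% of calls were higher in place of 64.8%. Without the filter on low values 225 calls were left, and 24 of the 48 higher and 15 of the 33 lower calls of transcripts named by rule were lost. Every transcript for which a lost call is given below also lost it without the filter, other than beta-amylase, peroxidase 21, *SAMS 3*, the high affinity nitrate transporter and isoform i10 of gibberellin 2-beta-dioxygenase 8. A call that held in every alternative held in all fits of single transcripts, and sums over isoforms are given apart.

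Descriptions were held for 3384 of the transcripts tested. They name the closest protein that the authors found in *Prunus mume* or *Arabidopsis*. Most come from tables of transcripts that the study itself called on these libraries, so counts in the lists are no independent evidence of a direction. Of the described transcripts 13.2% were called, 10.5% higher and 2.75% lower, with a median log2 FC of 0.47, and the lists are read against these shares. Errors beside a log2 FC are SE from 3 libraries per group, and levels of the 3 libraries of a group are given for trees 4, 5 and 6 in that order. Reads shared between isoforms or close copies had been divided between them by the authors' software, so single members of a family are uncertain.

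**Figure D1:**
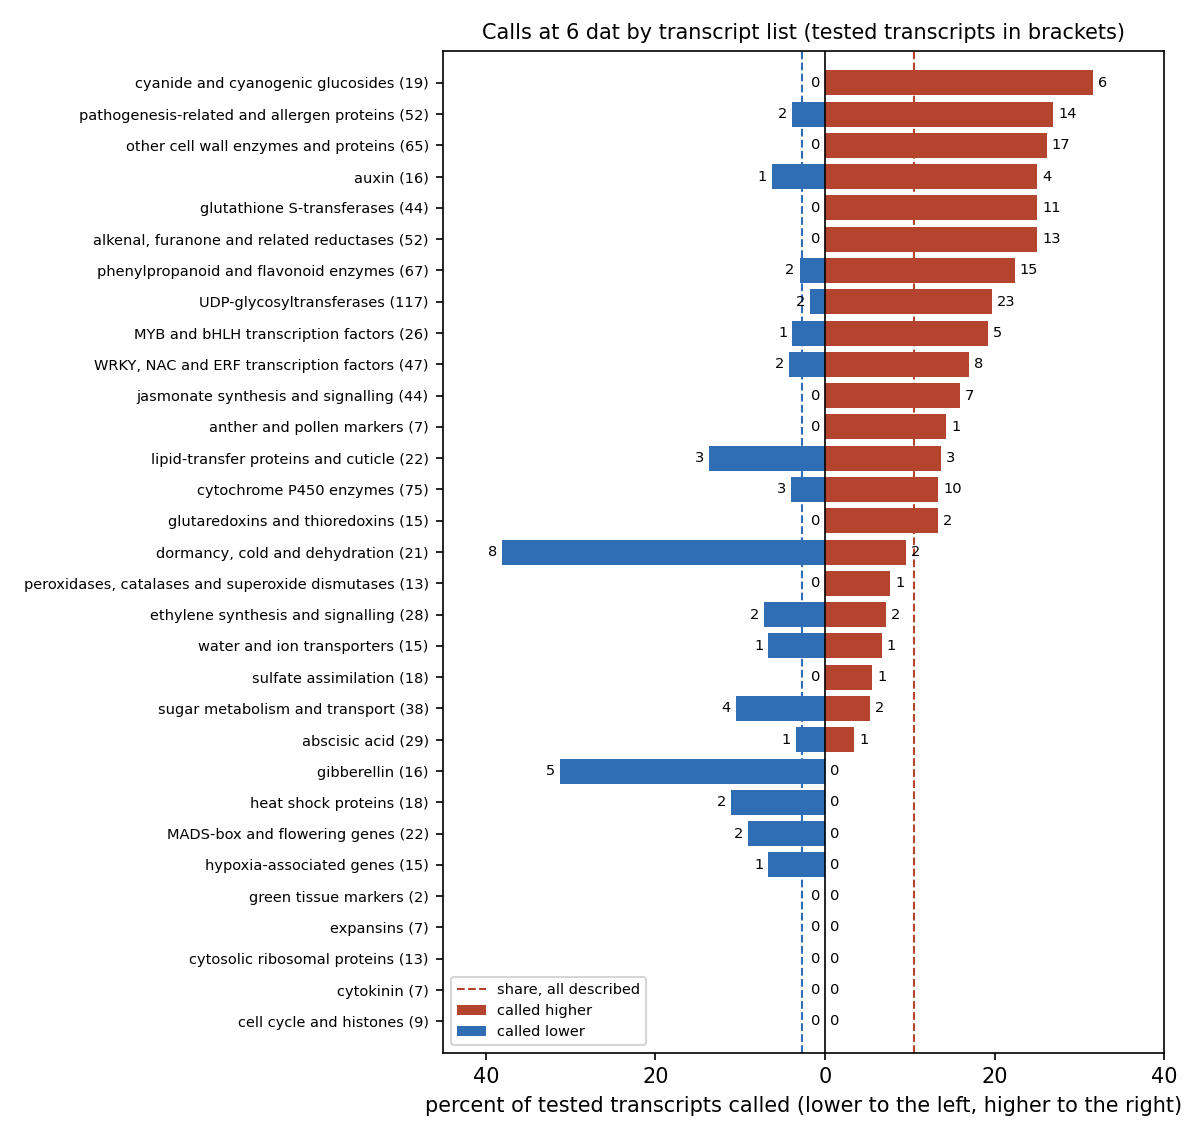
Percent of the tested transcripts of each list that were called higher (red, to the right) or lower (blue, to the left) in hydrogen cyanamide-treated buds at 6 dat, with the number of calls beside each bar and the number tested in brackets. Dashed lines mark the shares over all described transcripts, 10.5% higher and 2.75% lower, and the longest bars are those of cyanide and cyanogenic glucosides to the right (6 of 19) and of dormancy, cold and dehydration to the left (8 of 21). Isoforms of 1 assembled gene are counted apart, and by gene these bars stand for 4 of 12 and 2 of 13. The calls higher of UDP-glycosyltransferases (23), other cell wall (17) and pathogenesis-related proteins (14) lie in 16, 12 and 8 genes.

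Dehydrins, hydrophilic proteins that protect cells from drying and frost, were among the most abundant transcripts that fell. Dehydrin 3 (TR26333|c2_g1_i6) was at 137, 146 and 108 FPKM in treated and at 730, 790 and 681 in control buds. The highest treated library was thus far under the lowest control library, and the log2 FC was -2.50 ± 0.13 (adjusted p = 0.00139). Dehydrin 2 (TR26333|c2_g1_i8), a second isoform of the same assembled gene, was at 102, 110 and 88.2 FPKM against 524, 657 and 530. All 7 isoforms of this gene were called lower, with log2 FCs from -1.93 to -3.38, and the others are described as cold-shock protein CS120-like, a wheat dehydrin. Summed over isoforms, the gene was at 380.1 ± 66.8 FPKM (SD, n = 3) in treated and 2124 ± 231 in control buds. Dehydrin 3 and dehydrin 2 kept their call in every alternative, as did isoforms i4 and i7. Of the other isoforms, i1 lost it without control tree 4 or 5 (adjusted p = 0.0553 and 0.0528), and i3 with the tree as a block (0.0512) and without any of the 6 libraries (up to 0.13). Isoform i2 (TR26333|c2_g1_i2) lost it only without the filter (0.0586).

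Over the list of dormancy, cold and dehydration, 8 of 21 tested transcripts were called lower (38.1%) and 2 higher, with a median log2 FC of -0.79. Of the 8, 7 were the isoforms above and 1 was a LEA14 homolog (TR12075|c0_g1_i4), a desiccation protectant, at 9.91, 9.78 and 7.42 against 22.3, 18.2 and 24.9 FPKM. Its call was lost with the block (adjusted p = 0.0844), without any single library (up to 0.13) and with the isoforms of its gene summed (0.0792). With the tree as a block 6 members were called lower, 5 without control tree 4 and 4 without the filter. The list did not move as one. A desiccation-related protein PCC13-62-like (TR27007|c3_g3_i2) was higher, at 321, 105 and 68.5 FPKM in treated and 22.2, 13.3 and 9.02 in control buds, and a hydroxyproline-rich protein of the late embryogenesis abundant family (TR38495|c2_g1_i15) was also higher, at 91.0, 65.4 and 46.2 against 22.3, 20.2 and 25.0. Both calls were lost without treated tree 5 (adjusted p = 0.106 and 0.104) and without any of the control libraries (0.0981 to 0.136 and 0.0696 to 0.12), and the second also without treated tree 4 (0.0538) and with the tree as a block (0.0683). These 2 and LEA14 were picked after their values were seen.

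Among MADS-box and flowering genes, 2 of 22 were called lower (9.09%) and none higher. A transcript described as FLOWERING LOCUS C (TR13248|c2_g1_i1), in *Arabidopsis* a MADS-box repressor of flowering, was at 32.1, 26.9 and 32.2 FPKM in treated and at 72.6, 90.8 and 74.1 in control buds. Treated libraries were thus all below the lowest control library, with a log2 FC of -1.36 ± 0.14 (adjusted p = 0.0078), and the call held in every alternative. A transcript described as AGL24-like (TR32357|c2_g2_i7), a class of MADS-box factors near the dormancy-associated genes of *Prunus*, was at 37.8, 39.4 and 27.9 against 70.0, 92.2 and 70.6 FPKM. Its log2 FC of -1.14 ± 0.18 (adjusted p = 0.0278) lost the call without any 1 of the 6 libraries (adjusted p up to 0.102). The whole list summed to 176 to 197 FPKM in treated and 297 to 348 in control buds, and its median log2 FC was -0.17.

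Sugar metabolism and transport gave 4 members lower and 2 higher of 38, with a median log2 FC of -0.31. Chloroplastic beta-amylase (TR24912|c1_g2_i2), which releases maltose from starch, was at 20.3, 24.9 and 17.0 FPKM in treated and 66.3, 64.4 and 58.0 in control buds, with a log2 FC of -1.59 ± 0.16 (adjusted p = 0.00758, and 0.052 without control tree 4, the highest of its alternatives). The sugar transporter ERD6-like 16 (TR12684|c0_g1_i16), of a family that exports sugars from the vacuole, was at 112, 76.4 and 138 against 447, 417 and 251 FPKM. That call was lost in the blocked fit (adjusted p = 0.0794) and without the libraries of tree 4 or tree 5 of either group (0.0732 to 0.119). With the block, as without the filter, 1 member of the list was called lower and none higher, and without control tree 4 none was lower.

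The highest log2 FCs belonged to enzymes that remove reactive carbonyls. The 2-alkenal reductases, NADP-dependent enzymes that reduce the double bond of reactive aldehydes from lipid peroxides, held the 4 highest log2 FCs of all called transcripts, from 5.09 to 5.70. One (TR26840|c10_g1_i1) was at 50.5, 27.2 and 31.4 FPKM in treated and 0.569, 0.149 and 0.4 in control buds, with a log2 FC of 5.38 ± 0.31 (adjusted p = 0.00202). Another (TR38019|c1_g1_i1) was at 55.4, 19.1 and 22.8 FPKM and listed at 0.232, 0 and 0 in the controls, a log2 FC of 5.70 ± 0.43. The most abundant (TR26840|c9_g2_i1) was at 230, 60.2 and 65.5 against 4.69, 2.10 and 1.22 FPKM, and of the 4 it alone lost its call with a library left out (control library of tree 5, adjusted p = 0.0558). In each of these transcripts treated tree 4 was the highest. Over alkenal, furanone and related reductases, 13 of 52 were called higher (25%) and none lower, with a median log2 FC of 1.15. Calls numbered 8 with the tree as a block, 4 without control tree 4 and 3 without the filter.

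Glutathione S-transferases, which couple glutathione to reactive compounds, were higher in 11 of 44 (25%) and lower in none, with a median log2 FC of 1.23. With the tree as a block 6 were called, and 5 without control tree 4 or without the filter. A GST 23-like transcript (TR5472|c0_g1_i2) was at 84.0, 54.6 and 54.2 FPKM in treated and 6.29, 7.90 and 6.26 in control buds, a log2 FC of 3.12 ± 0.21 (adjusted p = 0.00258). The transcript that the study itself discusses as GST23 (TR33680|c0_g2_i1) was not called, at 8.19, 0.861 and 5.86 FPKM, with overlapping groups and an adjusted p of 0.346. Another glutathione S-transferase (TR33081|c1_g2_i2) was at 27.0, 11.4 and 11.3 FPKM and at most 0.37 in the controls (4.64 ± 0.42). Among glutaredoxins and thioredoxins, thiol reductases, 2 of 15 were called, both higher, with a median log2 FC of 1.30, and 1 with the block, without treated tree 4 or without the filter. Monothiol glutaredoxin-S2 (TR31490|c0_g1_i1) was at 41.3, 34.4 and 32.0 against 8.06, 7.66 and 5.19 FPKM (2.30 ± 0.21, adjusted p = 0.00579). The study's *GRX* (TR23850|c0_g1_i1) was at 233, 190 and 208 against 110, 107 and 109 FPKM, and its log2 FC of 0.94 ± 0.10 passed the adjusted p (0.0101) but not the fold change threshold. It gained a call, higher, after rescaling by median ratios and without treated tree 5.

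Antioxidant enzymes gave few calls. Of 13 peroxidases, catalases and superoxide dismutases, 1 was called, peroxidase 21 (TR39304|c0_g1_i2), at 4.56, 5.94 and 4.13 FPKM in treated and 0.315, 0.279 and 0.314 in control buds. Its adjusted p was 0.0108, and its call was lost without treated tree 5 (0.0567) or control tree 4 (0.053). Catalase *CAT1* (TR13462|c1_g1_i2), which breaks down hydrogen peroxide, was at 1.14, 1.11 and 1.15 against 8.24, 3.92 and 2.49, a log2 FC of -1.58 ± 0.42 that missed the threshold (adjusted p = 0.114) although the groups did not overlap. It is a minor isoform of its gene, whose 11 isoforms summed to 392 ± 30.0 FPKM (SD, n = 3) in treated and 273 ± 18.6 in control buds. That sum went the other way, with a log2 FC of 0.52 ± 0.10 that passed the adjusted p (0.0326) but not the fold change threshold. The manganese superoxide dismutase *Mn-SOD* (TR25086|c0_g1_i5) was at 65.3, 56.4 and 55.6 against 97.3, 110 and 83.0 FPKM and was not called either (adjusted p = 0.0555).

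UDP-glycosyltransferases, which attach sugars to hormones, phenolics and cyanohydrins, were higher in 23 of 117 (19.7%) and lower in 2, with a median log2 FC of 1.22. Calls higher numbered 13 with the tree as a block, 7 without control tree 4 and 5 without the filter. Both of the flavonoid 3-O-glucosyltransferases named by rule (TR13455|c5_g3_i1 and TR13066|c3_g4_i1) kept their call in every alternative. The first was at 65.1, 47.6 and 70.0 FPKM in treated and 10.5, 12.5 and 11.6 in control buds (2.34 ± 0.18, adjusted p = 0.00362), and the second had a log2 FC of 2.22 ± 0.20. Cytochrome P450 enzymes, mono-oxygenases of secondary metabolism, were higher in 10 and lower in 3 of 75, shares of 13.3% and 4% that lie near those of described transcripts. A CYP82D47-like transcript (TR38584|c1_g1_i2) was at 29.4, 21.2 and 14.0 FPKM against 0.0317, 0.658 and 0.674 (4.56 ± 0.41, adjusted p = 0.00591). With the block 4 P450 transcripts were called higher and none lower, while 3 were higher without control tree 4 and 4 without the filter.

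**Figure D2:**
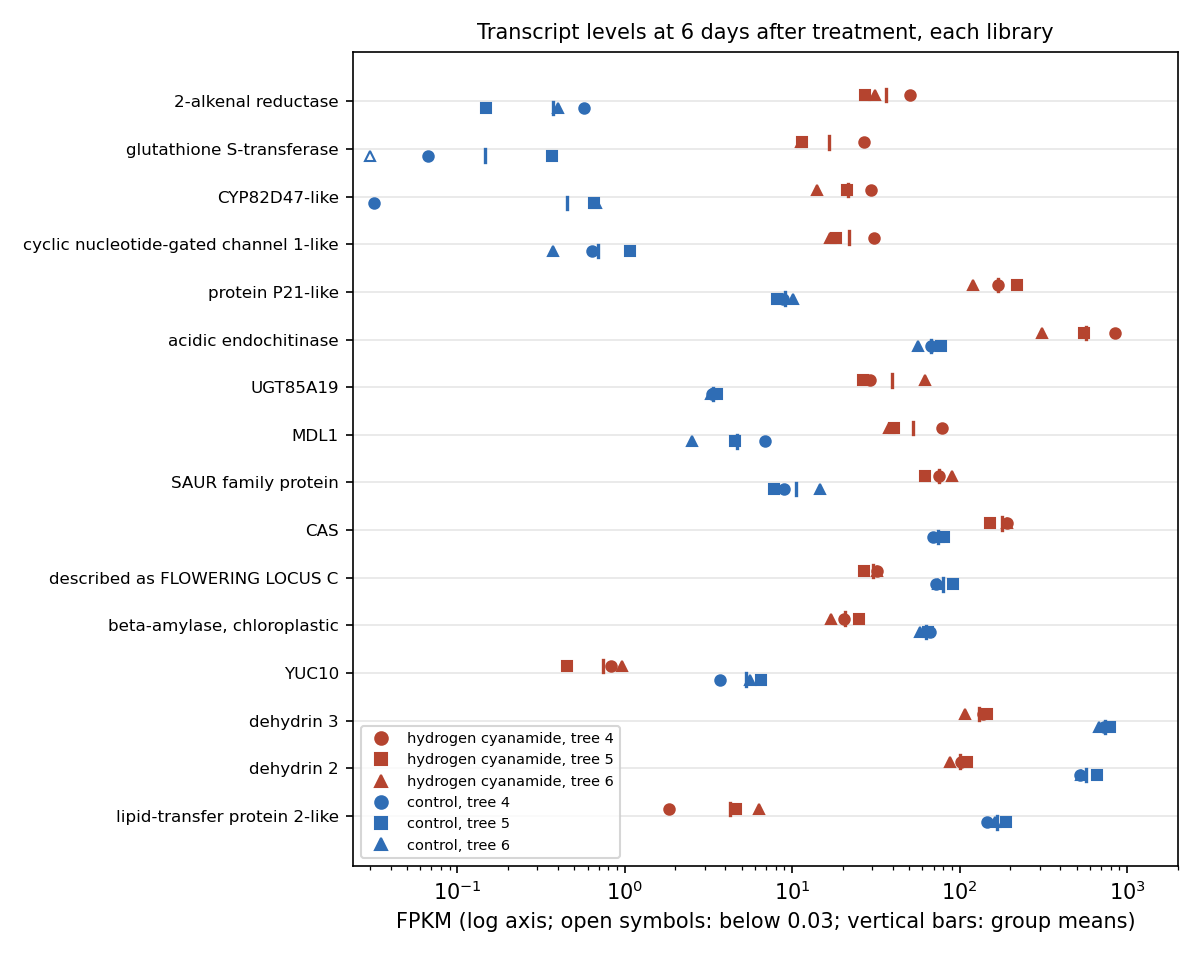
FPKM (log axis) of 16 transcripts in each of the 6 libraries at 6 dat, hydrogen cyanamide-treated in red and control in blue, with 1 symbol per tree and vertical bars at group means; open symbols are below 0.03 FPKM. Treated and control libraries are apart in every row, from 2-alkenal reductase (27.2 to 50.5 against 0.149 to 0.569 FPKM) to lipid-transfer protein 2-like (1.83 to 6.34 against 146 to 190 FPKM).

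Transcripts of cyanide binding and cyanogenic glucosides, from 12 assembled genes, were higher in 6 of 19 (31.6%, in 4 genes) and lower in none. Their median log2 FC was 1.62, and the list summed to 383 to 510 FPKM in treated and 179 to 187 in control buds. Calls numbered 4 with the tree as a block and 2 without control tree 5 or without the filter. With all 21 libraries in 1 fit 10 were called higher and 1 lower. *CAS* (TR10732|c0_g1_i1), the mitochondrial β-cyanoalanine synthase that turns cyanide and cysteine into cyanoalanine, was at 192, 152 and 192 FPKM in treated and 69.1, 80.2 and 74.7 in control buds. Its log2 FC of 1.25 ± 0.13 (adjusted p = 0.00758) held in every alternative. *UGT85A19* (TR37845|c4_g2_i1), a glucosyltransferase that makes prunasin from mandelonitrile, was at 29.2, 26.6 and 62.1 against 3.33, 3.54 and 3.30 FPKM (3.25 ± 0.32, adjusted p = 0.00666), also in every alternative. *MDL1* (TR12799|c0_g1_i1), a mandelonitrile lyase that splits mandelonitrile into benzaldehyde and cyanide, was at 79.0, 40.7 and 37.7 against 6.90, 4.56 and 2.52 FPKM. Its log2 FC of 3.37 ± 0.39 (adjusted p = 0.0118) lost the call without control tree 5 (0.0553). Other steps were not called in the fit of the 6 libraries. *CYP71AN24*, which makes mandelonitrile, had a log2 FC of 1.67 ± 0.38 (adjusted p = 0.0821), the nitrilase *NIT4A*, which processes cyanoalanine, 0.43 ± 0.10 (0.0848), and the cyanogenic β-glucosidase *BGD*, which frees mandelonitrile from prunasin, 0.61 ± 0.49 (0.589).

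The start of the coding sequence is shown for *MDL1*, which rose, and for the auxin gene *YUC10*, which fell, the called transcripts among those the study discusses whose held stretch begins before an open reading frame with a stop codon in frame upstream. The study's table holds 399 bases of each. The start codon, in capitals, is at base 212 of *MDL1*, with 186 open bases up to the end of the stretch, and at base 94 of *YUC10*, with 306. The first 60 coding bases are printed 5′ to 3′, and no position in a genome was looked up.
MDL1: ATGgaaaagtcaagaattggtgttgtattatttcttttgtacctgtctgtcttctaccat
YUC10: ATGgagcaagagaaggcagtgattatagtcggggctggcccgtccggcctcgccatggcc

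Auxin genes were higher in 4 of 16 (25%) and lower in 1, with a median log2 FC of 1.16. A SAUR family transcript (TR3209|c0_g1_i1), of the small proteins that auxin induces early during cell expansion, was at 74.8, 61.8 and 90.6 FPKM in treated and 8.90, 7.82 and 14.8 in control buds (2.83 ± 0.25, adjusted p = 0.00581), and kept its call in every alternative. Auxin-induced protein 15A-like (TR2960|c0_g1_i1), of the same family, was at 10.3, 5.09 and 4.56 FPKM against 0.171, 0.186 and 0, and was lost without control tree 4 (adjusted p = 0.0539). *YUC10* (TR26489|c0_g1_i1), a flavin mono-oxygenase of the last step of auxin synthesis, went the other way, at 0.825, 0.451 and 0.961 against 3.69, 6.5 and 5.63 FPKM. Its log2 FC of -2.20 ± 0.34 (adjusted p = 0.0268) was lost with the tree as a block (0.0809) and without any library but the treated one of tree 6 (0.0654 to 0.118). With the block 4 auxin genes were called higher, and 1 was without control tree 4 or without the filter.

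Gibberellin transcripts, from 11 assembled genes, were lower in 5 of 16 (31.2%, in 3 genes) and higher in none, with a median log2 FC of -0.86. However, with the tree as a block no call was left, none without treated tree 5 and 1 without the filter. Of the 5, 3 are isoforms of 1 assembled gene of gibberellin 2-beta-dioxygenase 8, an enzyme that inactivates gibberellins, whose summed level did not pass the test. The other pair are gibberellin-regulated proteins, small cysteine-rich proteins. The more abundant (TR33232|c1_g1_i1) was at 487, 453 and 576 FPKM in treated and 1374, 1407 and 880 in control buds (-1.25 ± 0.19, adjusted p = 0.0263, and 0.0759 with the block). It was lost without the libraries of tree 4 or tree 5 of either group (0.0749 to 0.117).

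Jasmonate transcripts, from 27 assembled genes, were higher in 7 of 44 (15.9%, in 5 genes) and lower in none, with a median log2 FC of 0.67. With the block 5 were called, and 2 without treated tree 5 or without the filter. Linoleate 9S-lipoxygenase 5 (TR13598|c3_g2_i1), which oxidizes linoleic acid, was at 10.5, 11.6 and 10.7 FPKM in treated and 1.19, 1.35 and 0.634 in control buds (2.91 ± 0.27, adjusted p = 0.0061), in every alternative. It makes 9-hydroperoxides, while jasmonate itself is made from the 13-hydroperoxides. Of the 12-oxophytodienoate reductases, 1 transcript (TR13619|c1_g4_i1) was at 42.6, 19.2 and 27.4 against 4.14, 4.39 and 5.13 FPKM (2.51 ± 0.29, adjusted p = 0.0111), and was lost without control tree 4 (0.0599) or 5 (0.0544). The name *OPR2* stands for transcripts of different assembled genes in the tables of the study. In its table of discussed genes it is TR13558|c2_g1_i1, which was at 8.46, 5.17 and 2.87 against 4.17, 4.63 and 2.02 FPKM, with overlapping groups (0.50 ± 0.43, adjusted p = 0.613). In its co-expression table it is TR13558|c1_g1_i9, which was called higher, at 9.6, 5.62 and 5.04 FPKM and at most 0.429 in the controls (3.25 ± 0.40, adjusted p = 0.0138), and was lost with the block (0.0575), without treated trees 4 (0.0504) and 5 (0.0581) and control tree 4 (0.0535), each in turn. The 10 isoforms of that gene summed to 100.4 ± 25.2 against 53.5 ± 13.8 FPKM, below the thresholds (0.91 ± 0.23, adjusted p = 0.0599). Another of these, TR13558|c1_g1_i2, was at 21.6, 14.7 and 13.9 against 2.50, 1.96 and 0.747 FPKM (3.01 ± 0.37, adjusted p = 0.0134) and was lost without the treated (0.0563) or control (0.0535) library of tree 5. The last 2 were picked after their values were seen. The genes of the core steps, allene oxide synthase *AOS* (0.62 ± 0.22, adjusted p = 0.222) and allene oxide cyclase *AOC* (0.74 ± 0.33, 0.311), were not called, nor was acyl-CoA oxidase *ACX4*, whose log2 FC of 0.79 ± 0.12 passed the adjusted p (0.0268) but not the fold change threshold.

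Ethylene genes were higher in 2 and lower in 2 of 28, with a median log2 FC of 0.93, while with all 21 libraries in 1 fit 10 were higher and 2 lower. SAM synthase *SAMS 3* (TR7883|c0_g1_i1), which makes the methyl donor from which ethylene is built, was at 75, 63.7 and 63 FPKM in treated and 25.8, 30.2 and 28.5 in control buds (1.24 ± 0.13, adjusted p = 0.00835, and 0.0502 without control tree 4). The other member called higher, ERF113 (TR6720|c1_g1_i1), of the ethylene response factors, was at 227, 187 and 248 against 83.6, 72.0 and 94 FPKM (1.4 ± 0.15, adjusted p = 0.00848, and 0.0513 without control tree 4). Both members called lower are response factors too, ERF023-like and ERF027-like. ERF023-like (TR31723|c0_g2_i1), picked after its values were seen, was at 9.97, 10.3 and 19.6 against 62.2, 55.8 and 49.9 FPKM (-2.10 ± 0.26, adjusted p = 0.0142) and was lost without treated tree 5 or control tree 4 or 5 (0.059 to 0.0796). An ACC oxidase (TR8011|c0_g1_i3), the enzyme of the last step, was at 1435, 869 and 969 against 291, 353 and 334 FPKM (1.71 ± 0.19, adjusted p = 0.00944). It was not in the list by its description, was among the most abundant transcripts called higher, and lost its call without control tree 4 (0.0553). ACC synthase *ACS* (TR20901|c0_g1_i1) was at 23.5, 4.99 and 3.49 against 0.490, 1.22 and 0.793 FPKM, highest by far in treated tree 4, and was not called (2.63 ± 0.65, adjusted p = 0.0968). Its companion *ACO* had a log2 FC of 1.59 ± 0.52 (0.184). Both *ACS* and *ACO* gained a call with all 21 libraries in 1 limma fit (adjusted p = 0.0069 and 0.015). Without control tree 4 no ethylene gene was called higher, and without treated tree 5 none lower, while without the filter 1 was higher and none lower.

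Cytokinin genes gave no call in the limma fit of the 6 libraries among 7 tested, with a median log2 FC of -0.45. At an unadjusted p of 0.05 or less 1 was higher and 2 lower, and with all 21 libraries in 1 fit 2 were called lower. The isopentenyltransferase *IPT3* (TR4571|c0_g1_i1), of the first step of synthesis, was at 0.771, 0.437 and 0.847 FPKM against 2.51, 1.78 and 2.07 (-1.15 ± 0.34, adjusted p = 0.146). *LOG5* (TR39645|c3_g1_i2), which activates cytokinin, was at 6.4, 6.3 and 4.16 against 2.57, 2.91 and 2.36 FPKM (0.96 ± 0.26, adjusted p = 0.121). Neither of these 2 transcripts passed the test. *IPT3* gained a call, lower, only with all 21 libraries in 1 fit, and *LOG5* in no alternative. Of 29 abscisic acid transcripts, from 15 assembled genes, 1 was called higher and 1 lower, and neither with the tree as a block, without treated tree 4 or without the filter. The higher was an abscisate β-glucosyltransferase-like transcript (TR38510|c3_g4_i4), which stores abscisic acid as its glucose ester, at 4.54, 2.10 and 3.13 against 0.316, 0.389 and 0.144 FPKM (2.22 ± 0.38, adjusted p = 0.0383, up to 0.133 with 1 library left out).

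Pathogenesis-related and allergen proteins were higher in 14 of 52 (26.9%) and lower in 2, with a median log2 FC of 1.38. The list summed to 2776 to 4699 FPKM in treated and 1508 to 1802 in control buds. Protein P21-like (TR26377|c0_g3_i1), of the thaumatin-like proteins of defence but outside the list by its description, was at 170, 219 and 120 FPKM in treated and 8.82, 8.11 and 10.1 in control buds, and its log2 FC of 4.12 ± 0.22 (adjusted p = 0.0014) held in every alternative. An endochitinase-like transcript (TR26766|c0_g1_i3), of the enzymes that cut chitin, was at 143, 90.7 and 67.3 against 13.2, 15.3 and 14.1 FPKM (2.71 ± 0.26, adjusted p = 0.00616), also in every alternative. Acidic endochitinase-like (TR39175|c0_g1_i1) was at 853, 549 and 312 against 67.5, 77.2 and 56.5 FPKM (2.98 ± 0.33, adjusted p = 0.0102, and 0.0553 without control tree 4). Calls higher in the list numbered 8 with the tree as a block, 4 without treated tree 5 and 1 without the filter.

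Other cell wall enzymes and proteins were higher in 17 of 65 (26.2%) and lower in none, with a median log2 FC of 1.38, and summed to 1478 to 3190 FPKM in treated and 374 to 479 in control buds. With the block 10 were called, 3 without control tree 4 and 1 without the filter. An endo-1,3;1,4-β-glucanase-like transcript (TR7628|c0_g2_i2), of the enzymes that cut mixed-linkage glucans, was at 31.8, 27.2 and 34.6 against 7.45, 7.40 and 8.08 FPKM (1.95 ± 0.16, adjusted p = 0.0042), in every alternative. Extensin-3-like (TR5955|c1_g1_i1), a structural protein of the wall chosen after its values were seen, was at 106, 171 and 139 against 20.8, 18.9 and 8.28 FPKM (3.16 ± 0.34, adjusted p = 0.0097), and was lost only without the filter (0.0687). A glucan endo-1,3-β-glucosidase (TR13502|c1_g3_i1), of the enzymes that open callose plugs, was at 629, 222 and 230 FPKM against 54.4, 62.9 and 57.6, with treated tree 4 above the others, and its call (2.44 ± 0.37, adjusted p = 0.0259) was lost with the block (0.0551), without treated tree 5 (0.0556) and without any of the control libraries (0.0773 to 0.114). The study's *1,3BG* (TR33640|c1_g4_i1) was not called, at 59.9, 39.5 and 40.9 against 31.4, 35.2 and 19.2 FPKM (adjusted p = 0.224).

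Expansins, which loosen walls during growth, gave no call in the limma fit of the 6 libraries among 7 (3 higher and 0 lower at an unadjusted p of 0.05 or less). With all 21 libraries in 1 fit 1 was called higher. They summed to 340 to 430 FPKM in treated and 296 to 423 in control buds. *EXPA1* (TR9861|c0_g1_i4) was the most abundant, at 209, 215 and 269 against 281, 218 and 313 FPKM, with overlapping groups (-0.22 ± 0.16, adjusted p = 0.537). *EXPA11* had a log2 FC of 0.25 ± 0.27 and expansin-like *EXLB1* of 2.17 ± 0.57 (adjusted p = 0.113, and 0.0108 with all 21 libraries in 1 fit, where *EXLB1* was called higher). Among lipid-transfer proteins and cuticle genes, 3 of 22 were higher and 3 lower, and 2 lipid-transfer proteins went in opposite directions. Lipid-transfer protein 2-like (TR24771|c0_g1_i1) was at 1.83, 4.62 and 6.34 FPKM in treated and 146, 190 and 162 in control buds (-5.26 ± 0.37, adjusted p = 0.00275), in every alternative. Lipid-transfer protein 1-like (TR20712|c0_g1_i1) was at 66.9, 18.6 and 21.6 against 0.819, 4.13 and 0.951 FPKM (3.88 ± 0.62, adjusted p = 0.0301), and was lost with the block (0.0807) and without any library but the control one of tree 5 (0.0587 to 0.121). With the block none of the list was higher and 1 lower, without treated tree 4 the counts were 0 and 1, and without the filter 1 and 1.

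Phenylpropanoid and flavonoid enzymes were higher in 15 of 67 (22.4%) and lower in 2, with a median log2 FC of 1.10. With the block 8 were higher, 2 without control tree 4 and 1 without the filter. A cinnamyl alcohol dehydrogenase (TR13061|c4_g1_i12), which makes the alcohols that lignin is built from, was at 36.1, 36.8 and 41.7 FPKM in treated and 10.7, 13.9 and 10.5 in control buds (1.67 ± 0.16, adjusted p = 0.00645), in every alternative. A cinnamoyl-CoA reductase 1-like transcript (TR12814|c1_g1_i15), the enzyme of the step before, was at 27.1, 12.6 and 15.7 against 0.918, 1.83 and 0.655 FPKM (3.53 ± 0.38, adjusted p = 0.00902, and 0.0501 without control tree 4).

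Of WRKY, NAC and ERF transcription factors, 8 of 47 were higher (17%) and 2 lower, and of MYB and bHLH factors 5 of 26 were higher (19.2%) and 1 lower. With the block 3 and 2 were higher, and without the filter 1 and 1. A transcript described as MYB34 (TR10621|c1_g2_i2), in *Arabidopsis* a regulator of indole glucosinolates, was at 31.9, 18.5 and 13.0 FPKM against 1.72, 1.37 and 1.08 (3.44 ± 0.34, adjusted p = 0.00717), in every alternative. *MYB108* (TR10621|c1_g1_i3), a jasmonate-induced factor of stamens in *Arabidopsis*, was at 32.3, 22.1 and 14.9 against 4.19, 7.22 and 5.90 FPKM (1.87 ± 0.31, adjusted p = 0.0349), and was lost with the block (0.0854) and without any library but the treated one of tree 6 (0.0754 to 0.131). WRKY75 (TR14698|c0_g1_i1), known from phosphate starvation, senescence and defence, was at 35.1, 15.4 and 13.3 against 1.90, 2.20 and 1.66 FPKM (3.04 ± 0.36, adjusted p = 0.013), and was lost without control tree 4 (0.0653) or 5 (0.0544). No WRKY, NAC or ERF factor was called higher without control tree 4, and 1 MYB or bHLH factor was without treated tree 4. Myb-related protein 308-like (TR24348|c0_g2_i1), in snapdragon a repressor of phenolic synthesis, was lower, at 7.50, 12.7 and 15.8 against 56.0, 51.2 and 55.5 FPKM (-2.19 ± 0.25, adjusted p = 0.0116), and was lost without control tree 4 (0.0663) or 5 (0.0553).

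Other transcripts with high log2 FCs were a cyclic nucleotide-gated ion channel 1-like (TR40110|c2_g4_i2), a cation channel of the plasma membrane, at 30.6, 18.3 and 16.9 against 0.639, 1.08 and 0.374 FPKM (4.22 ± 0.33, adjusted p = 0.00405). A heterogeneous nuclear ribonucleoprotein A3-like (TR12909|c1_g1_i5), an RNA-binding protein, was at 149, 74.6 and 83.2 against 5.11, 5.54 and 4.62 FPKM (4.14 ± 0.26, adjusted p = 0.00254). Both held in every alternative. Among those that fell, a BTB/POZ and TAZ domain protein 4 (TR8821|c0_g2_i3), an adaptor of ubiquitin ligases, was at 4.17, 4.33 and 5.10 against 26.8, 26.7 and 29.5 FPKM (-2.49 ± 0.16, adjusted p = 0.00254), in every alternative. A 14 kDa proline-rich protein (TR26636|c3_g1_i1) was at 2.11, 1.74 and 2.22 against 23.5, 29.1 and 14.0 FPKM (-3.11 ± 0.29, adjusted p = 0.0061), also in every alternative. Both proteins differed little among the treated libraries.

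Several lists gave few calls. Heat shock proteins were lower in 2 of 18 (11.1%), with a median log2 FC of -1.34, and summed to 223 to 286 FPKM in treated and 350 to 682 in control buds. More of them leaned lower than were called: 11 were lower at an unadjusted limma p of 0.05 or less, and 4 had a log2 FC above 0. All 21 libraries in 1 fit gave 10 calls lower. HSP70-8 (TR1668|c0_g1_i1), a chaperone, was at 36.1, 19.7 and 15.9 against 122, 167 and 63.3 FPKM (-2.25 ± 0.40, adjusted p = 0.0436), and was lost with a pseudocount of 0.1 FPKM (0.0512) and without any library but the control one of tree 6 (0.0502 to 0.16). The list had 4 calls with the block, none without treated tree 5 and 1 without the filter. In the fit of the 6 libraries limma made no call among 9 cell cycle and histone genes (1 higher and 2 lower at an unadjusted p of 0.05 or less) and none among 13 cytosolic ribosomal proteins (0 and 2). Array weights gave 2 cell cycle and histone genes lower, and all 21 libraries in 1 fit gave 1 ribosomal protein lower. Histone H1 (TR21902|c0_g2_i1), the linker histone, was at 371, 344 and 460 against 861, 737 and 671 FPKM, and its log2 FC of -0.95 ± 0.14 passed the adjusted p (0.0231) but not the fold change threshold. It gained a call, lower, with array weights and without treated or control tree 6, each in turn. Of 15 hypoxia-associated transcripts, from 8 assembled genes, 1 was called lower, and none without control tree 4. Their median log2 FC was -0.42, while their summed level was higher in treated buds, at 648 to 810 FPKM against 369 to 465. Of 18 sulfate assimilation genes, which summed to 400 to 549 FPKM in treated and 290 to 330 in control buds, 1 was called higher, and none with the block, without treated tree 5 or without the filter. In lists without a call in 1 direction, the unadjusted p was 0.05 or less for 0 lower members of jasmonate, 1 of cyanide, 2 of glutathione S-transferase, 0 of glutaredoxin, 4 of peroxidase, catalase and superoxide dismutase, 2 of reductase, 3 of other cell wall, 0 of sulfate assimilation and 1 of anther and pollen genes, and for 3 higher members of gibberellin, 2 of MADS-box, 1 of heat shock and 2 of hypoxia genes. Of the green tissue markers 1 was higher and 1 lower at that p.

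Called isoforms of 1 assembled gene went in opposite directions in 9 genes. A palmitoyl-MGDG delta-7 desaturase (TR26734|c4_g2), which desaturates lipids of the chloroplast, had the lowest log2 FC among described transcripts. Isoform i1 was at 89.2, 70.4 and 70.4 FPKM in control buds and at most 0.0178 in treated buds (-7.24 ± 0.20, adjusted p = 6.74e-05), in every alternative. Isoform i3 was at 9.38, 11.1 and 17.7 in treated and 1.98, 0.988 and 1.84 in control buds (2.64 ± 0.33, adjusted p = 0.0141), lost without treated tree 5 or the control libraries of trees 4 and 5 (0.0528 to 0.0591). Summed over its 16 isoforms the gene was at 35.3 ± 9.90 FPKM (SD, n = 3) against 93.1 ± 10.8, a log2 FC of -1.42 ± 0.20 (adjusted p = 0.0122), far from the -7.24 of the single isoform.

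A basic endochitinase gene (TR33030|c1_g1) had 2 minor isoforms lower and its main isoform higher. Isoform i3 was at 3.38, 1.64 and 3.46 FPKM against 23.1, 34.8 and 23.0 (-3.07 ± 0.30), while isoform i2, without a description and picked after its values were seen, was at 1121, 910 and 733 against 406, 432 and 374 (1.17 ± 0.15, adjusted p = 0.0175). The sum was higher, 926 ± 194 against 448 ± 39.9 FPKM (1.03 ± 0.17, adjusted p = 0.0183), so that the direction of the described isoform was the opposite of that of the gene. The call of i2 was lost without treated tree 5 and without any control library (0.0584 to 0.0872). Gibberellin 2-beta-dioxygenase 8 (TR12555|c3_g2) had 4 isoforms lower and 1, i10, higher, at 22.5, 26.5 and 28.9 against 8.26, 6.54 and 7.65 FPKM (1.73 ± 0.17, adjusted p = 0.00717, and 0.219 with all 21 libraries in 1 fit). Its 21 isoforms summed to 35.9 ± 3.56 and 50.1 ± 7.85 FPKM (-0.47 ± 0.14, adjusted p = 0.0909). Serine carboxypeptidase-like 13 (TR13486|c1_g1_i41) was at 0.000316, 0.527 and 0.259 against 20.4, 10.8 and 30.0 FPKM (-4.72 ± 0.44), yet its 42 isoforms summed to 60.9 ± 1.4 and 63.5 ± 14.1 FPKM (adjusted p = 0.907). Of the 564 transcripts called higher, 460 lay in genes whose summed level was also called higher and 2 in genes called lower, and of the 306 called lower, 182 and 2. Among transcripts described above, the summed level of the gene missed a call for the hydroxyproline-rich protein TR38495|c2_g1_i15 (0.98 ± 0.33, adjusted p = 0.125), abscisate β-glucosyltransferase-like TR38510|c3_g4_i4 (0.88 ± 0.24, 0.0761) and cinnamoyl-CoA reductase TR12814|c1_g1_i15 (0.75 ± 0.09, 0.00682).

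**Figure D3:**
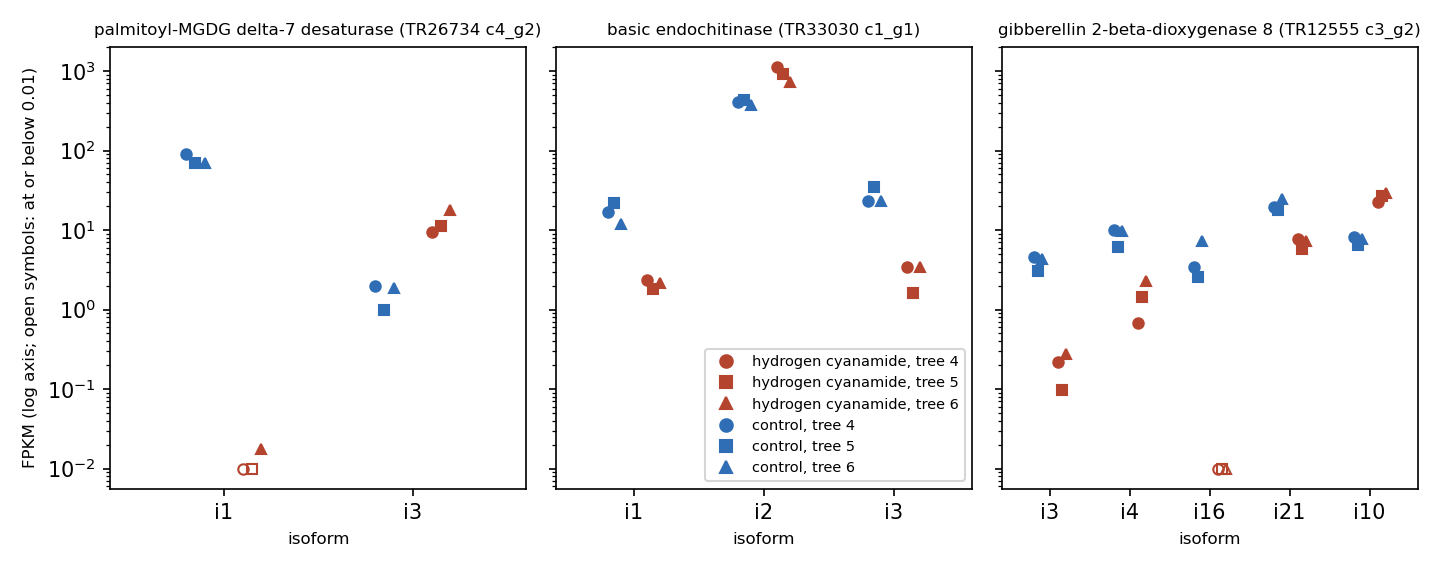
FPKM (log axis) of the called isoforms of 3 assembled genes in each of the 6 libraries at 6 dat, treated in red and control in blue, with 1 symbol per tree; open symbols are at or below 0.01 FPKM. In each gene at least 1 isoform lies higher and 1 lower in treated buds, such as desaturase i1 (at most 0.0178 against 70.4 to 89.2 FPKM) and i3 (9.38 to 17.7 against 0.988 to 1.98).

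The levels at 6 dat were set beside the other days. Of the 564 transcripts called higher, 550 had a treated mean above the means of day 0 and of the controls at 1 and 3 dat, and 218 of the 306 called lower had one below all of them. Of the first, 543 could be tested at 3 dat and 502 at 1 dat, where 286 and 246 were called higher as well, with 0 and 1 called lower. Of the second, 292 and 285 could be tested, and 88 and 49 were called lower, with 0 and 3 higher. The median log2 FC of the transcripts called higher was 1.26 at 1 dat and 1.69 at 3 dat, and of those called lower -0.49 and -0.998. These days have their own treated and control libraries, from the same trees. The transcripts were chosen by their values at 6 dat, so how they stand against earlier means is partly set by that choice. Shares over all transcripts tested were not counted for these comparisons. The counts therefore do not tell how far the called transcripts differ from others on the earlier days.

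The effect at 6 dat differed from that at 3 dat in 202 of 62976 transcripts (0.321%), 59 with a higher log2 FC at 6 dat (0.0937%) and 143 with a lower one (0.227%). From 1 dat it differed in 1005 (1.6%), 351 higher (0.557%) and 654 lower (1.04%), or in 414 without tree 4 at 1 dat, where the study used 2 replicates. Without the 3 dat control library of tree 4, or without that of tree 6, the first count was 81. It was 96 without treated tree 5 at 6 dat, and 108 without control tree 4 at 6 dat. The second was 622 without treated tree 6 at 1 dat, 654 without control tree 5 at 1 dat and 663 without control tree 4 at 6 dat. Among transcripts called higher at 6 dat, 15 had a higher and 4 a lower log2 FC than at 3 dat, and among those called lower 25 had a lower one.

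Dehydrin 3 fell in both groups, from 4413 ± 55.3 FPKM (SD, n = 3) at day 0 to 2842 ± 120, 2238 ± 336 and 733 ± 54.8 in controls and to 1066 ± 119, 524 ± 196 and 130.5 ± 19.8 in treated buds at 1, 3 and 6 dat. The controls at 6 dat thus lay between the treated buds at 1 and at 3 dat. The transcript described as FLOWERING LOCUS C followed the same order, from 191 ± 7.04 at day 0 to 79.2 ± 10.1 in controls and 30.4 ± 3.01 in treated buds at 6 dat. The SAUR transcript rose from 0.773 ± 0.596 FPKM at day 0 to 10.5 ± 3.74 in controls at 6 dat, and in treated buds was at 0.986 ± 0.346, 18.0 ± 3.69 and 75.7 ± 14.4 at 1, 3 and 6 dat. *UGT85A19* in treated buds was at 3.01 ± 1.00, 8.81 ± 0.284 and 39.3 ± 19.8 FPKM on these days, and in controls at 0.814 ± 0.283, 1.04 ± 0.211 and 3.39 ± 0.13.

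Other transcripts were higher in treated buds at an earlier day than at 6 dat. *CAS* was at 637 ± 36.5 FPKM in treated buds at 1 dat, 190 ± 70.0 at 3 dat and 179 ± 23.1 at 6 dat, while controls stayed between 48.8 ± 2.80 and 74.7 ± 5.55. Its log2 FC at 6 dat was lower than at 1 dat by 2.15 (difference -2.15 ± 0.26, adjusted p = 0.000647), in every alternative. The 2-alkenal reductase TR26840|c9_g2_i1 was at 762 ± 124, 276 ± 288 and 119 ± 96.7 FPKM in treated buds, without a difference in log2 FC that passed the test (adjusted p = 0.353 against 1 dat). The *OPR2* transcripts TR13558|c2_g1_i1 and TR13558|c1_g1_i9 were at 142 ± 14.5 and 115 ± 12.0 FPKM in treated buds at 1 dat and at 5.50 ± 2.81 and 6.75 ± 2.48 at 6 dat. *EXPA1* was at 358 ± 89.1 FPKM in treated buds and 74.6 ± 27.4 in controls at 3 dat and at 231 ± 32.9 and 271 ± 48.1 at 6 dat, when controls had reached the level of treated buds. Protein P21-like went the other way, at 13.7 ± 5.51, 35.5 ± 5.21 and 169.5 ± 49.4 FPKM in treated buds and between 9.02 ± 1.03 and 14.1 ± 4.97 in controls.

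**Figure D4:**
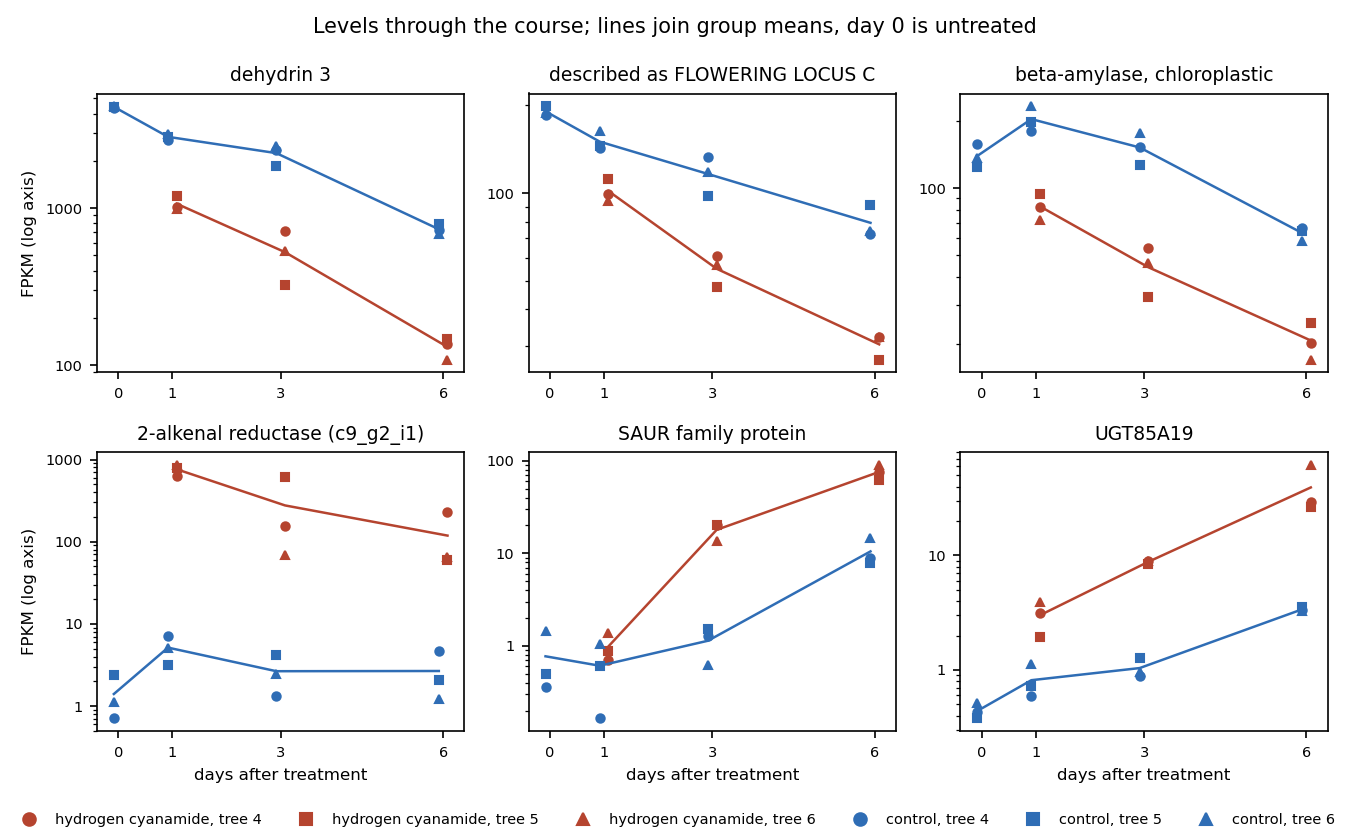
FPKM (log axis) of 6 transcripts in each library against days after treatment, hydrogen cyanamide-treated in red and water control in blue, with 1 symbol per tree; lines join group means and start, for controls, at untreated day 0. Dehydrin 3 and the transcript described as FLOWERING LOCUS C fall in both groups, beta-amylase in controls is above its day 0 mean (139 FPKM) at 1 and 3 dat (203 and 152) and below it at 6 dat (62.9), all 3 are lower in treated buds from 1 dat on, the 2-alkenal reductase is highest at 1 dat (762 FPKM), and the SAUR transcript and UGT85A19 rise to 75.7 and 39.3 FPKM at 6 dat.

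The treated library of tree 4 stood above the others in many of the transcripts called higher. It held the highest of the 3 treated values in 382 of 564, tree 5 in 62 and tree 6 in 120, while over all transcripts tested the shares were 36.7%, 30.8% and 32.5%. The median ratio of its value to the mean of the treated libraries was 1.19, against 0.895 and 0.911 for trees 5 and 6. Without this library 246 transcripts were called higher and 146 lower, against 203 and 92 without treated tree 5 and 442 and 254 without treated tree 6. Without control tree 4 the counts were 132 and 35, so the loss of calls was not particular to treated tree 4. No such order was seen among the transcripts called lower, where the lowest treated value was that of tree 4 in 105, of tree 5 in 92 and of tree 6 in 109. The part of this tree in the calls was not tested beyond leaving it out.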

How the data were processed

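Stranded mRNA libraries of flower buds were trimmed by the authors with Trimmomatic 0.33, assembled with Trinity, mapped with STAR, whose version is not given in the sources used here, and quantified with eXpress 1.5.1. The deposited table gives FPKM of 112043 transcripts in 48840 assembled genes, without counts, so no count test was run and depth is unknown. The 61781 transcripts whose FPKM averaged 0.5 or more in the 6 libraries were tested two-sided on log2(FPKM + 0.5). The tool was limma 3.58.1 (R 4.3.3), its variance prior following the mean level, with p-values adjusted by Benjamini-Hochberg over all of them. Differences between days were interaction contrasts over the 18 treated and control libraries. Replicates are separate trees, and the treated and control library of a number come from 1 tree, which was therefore also fitted as a block. Deviations from the group means correlated at -0.0098, -0.0037 and 0.0598 within trees 4, 5 and 6 and at -0.118 to 0.127 between trees.

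The members, the 31 lists and the tests were chosen with earlier results of these data known. Named transcripts were those the study discusses with an identifier and sequence (28), the 15 highest and 15 lowest called with a description (at least 5 FPKM on average in the higher group, 1 per assembled gene, groups without overlap), the 5 most abundant called in each direction, and the 2 with the lowest adjusted p in each list. The text names those with a known role, and 29 others were picked after their values were seen. Alternatives changed the pseudocount (0.1 or 1 FPKM), the filter (none, or 1 FPKM on average), the scale (median ratios), the weights (by array), the block, the fold change threshold (none), the libraries (all 21, or each left out) and the unit (isoforms summed). In a simulation from these libraries, 100 of 61781 transcripts were given an absolute change of 1.5 on the log2 scale, and 100 one of 3. Of these, 32% and 68% were called, with 4 unchanged ones. The adjusted p depends on how many transcripts change, and fewer were changed there than were called at 6 dat. The shares are therefore no measure of how many real changes of that size were called. Tables were handled with pandas 2.3.3 under Python 3.11.15, and figures drawn with matplotlib 3.10.9.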

Additional observations from a re-analysis of the deposited data

Results flagged for a closer look

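The treatment effect on 25 named transcripts at 6 dat differed from that on an earlier day by a limma interaction test (log2 FC at 6 dat minus that of the earlier day, adjusted p over all transcripts), 5 against 3 dat and 20 against 1 dat.

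Against 3 dat, the difference was -2.51 for *EXPA1* (TR9861|c0_g1_i4, adjusted p = 0.00679) and -4.87 for desaturase isoform TR26734|c4_g2_i1 (0.000174), both in every alternative. It was -3.65 for the *OPR2* transcript of the table of discussed genes (TR13558|c2_g1_i1, 0.032), 2.33 for protein P21-like (TR26377|c0_g3_i1, 0.0313) and -4.17 for oligopeptide transporter 1 (TR12263|c7_g1_i4, 0.024), and each of these missed the threshold without control tree 4 at 6 dat or without control tree 6 at 3 dat, with adjusted p of up to 0.0892, 0.081 and 0.0983 over the alternatives.

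Against 1 dat, 14 of 20 differences held in every alternative, among them that without tree 4 at 1 dat. Genes whose effect was lower at 6 dat were *CAS* (TR10732|c0_g1_i1, -2.15), the same *OPR2* transcript (TR13558|c2_g1_i1, -6.03), *ACO* (TR18526|c0_g1_i1, -3.93), *GRX* (TR23850|c0_g1_i1, -1.73), *NIT4A* (TR24496|c0_g1_i1, -1.10), *1,3BG* (TR33640|c1_g4_i1, -2.22), *IPT3* (TR4571|c0_g1_i1, -2.997) and *SAMS 3* (TR7883|c0_g1_i1, -1.45). For *IPT3*, treated buds were above control at 1 dat (4.55 against 0.877 FPKM) and below at 6 dat (0.685 against 2.12). The effect was also lower at 6 dat for the desaturase isoform (TR26734|c4_g2_i1, -5.67) and lipid-transfer protein 2-like (TR24771|c0_g1_i1, -3.67), which were already lower in treated buds at 1 dat (log2 FC of -1.58 for both). It was lower as well for shaggy-related kinase theta-like (TR10102|c0_g1_i1, -5.58) and BTB/POZ and TAZ domain protein 4 (TR8821|c0_g2_i3, -2.30), whose log2 FCs at 1 dat, 1.79 and -0.19, did not pass the test (adjusted p = 0.0902 and 0.331). The effect was higher at 6 dat for ribonucleoprotein A3-like (TR12909|c1_g1_i5, 2.74) and protein P21-like (TR26377|c0_g3_i1, 4.18), whose log2 FCs at 1 dat, 1.39 and -0.06, did not pass it either (adjusted p = 0.122 and 0.943).

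The other 6 missed the threshold in some alternatives, each also without tree 4 at 1 dat. They were *BGD* (TR26414|c0_g1_i2, -2.46, adjusted p up to 0.102), *UGT85A19* (TR37845|c4_g2_i1, 1.85, up to 0.0942), *EXPA1* (TR9861|c0_g1_i4, -1.56, up to 0.102), lipid-transfer protein 1-like (TR20712|c0_g1_i1, -2.85, up to 0.121), serine carboxypeptidase-like 13 (TR13486|c1_g1_i41, -4.70, up to 0.128) and an ACC oxidase (TR8011|c0_g1_i3, -1.60, up to 0.0909).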

How the results depend on the processing

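Counts of calls at 6 dat depended on the settings. Without the filter on low values 225 transcripts were called (131 higher, 94 lower), and with the tree as a block 405 (264 higher, 141 lower), of which 352 were among the 870. Array weights gave 508 lower, and all 21 libraries in 1 fit 2555 (1311 higher, 1244 lower). With 1 library left out the calls were 167 to 696 (132 to 442 higher, 35 to 254 lower). Pseudocounts of 0.1 and 1 FPKM (778 and 900), a minimum mean of 1 FPKM (969), rescaling (1024), no fold change threshold (1038) and isoforms summed (1147) stayed within 1.5 times of 870. The difference between 6 and 3 dat had 99 calls after rescaling, 167 with the block and 81 to 273 with 1 library left out, and that between 6 and 1 dat 904 with the block, 414 without tree 4 of both groups at 1 dat and 622 to 1179 with 1 library left out. Of the 870, 136 (103 higher, 33 lower) stayed called under each left-out library and the block. Among the transcripts named by rule, 21 of 48 called higher and 10 of 33 called lower kept their call in every fit of single transcripts, and 20 and 8 of these also with isoforms summed, while 22 and 21 lost it without control tree 4, and 10 and 11 with the block, and 24 and 15 without the filter. Of single values, 1618 kept direction and side of the threshold, 373 lost the call and 21 gained one. *HK4* (TR10857|c1_g1_i6), not called at -0.11, ranged from -0.23 to 0.0054 with 1 library left out and changed sign without treated tree 6. The causes were not tested. Without counts, low FPKM values carry an error that cannot be stated.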

Other observations

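Potassium channel SKOR-like (TR19470|c0_g1_i1), in *Arabidopsis* a channel that loads potassium into the xylem, was at 36.6, 24.8 and 17.5 FPKM in treated and 3.59, 5.03 and 4.17 in control buds (2.44 ± 0.28, adjusted p = 0.0116), and its call was lost without treated tree 5 (0.0543) or control tree 4 (0.0599). A high affinity nitrate transporter (TR38534|c3_g4_i1) was at 0.573, 0.985 and 0.952 against 4.87, 5.25 and 4.88 FPKM (-2.06 ± 0.28, adjusted p = 0.0201), lost with the tree as a block (0.0678) and without any library but the treated one of tree 6 (0.0514 to 0.105). NRT1/PTR family protein 3.1 (TR40470|c2_g1_i2) was higher, at 259, 234 and 321 against 135, 138 and 122 FPKM (1.03 ± 0.13, adjusted p = 0.0165), close to the fold change threshold. That call was lost with array weights, with the block (0.055), without treated tree 6 and without any control library, where the adjusted p reached 0.0812.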
